A study of Ovis aries with 10 samples.

Results

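The miRNAs miR-10a, miR-10b, miR-99a and miR-125b were examined in lung tissue of a sheep model for lung fibrosis, each with a probe of the same name and the ovine prefix oar, and together 4 of the 152 ovine miRNA probes of a custom array. They were chosen by name, as HOX-linked and related miRNAs, and all 4 were found in the data. The array series covered 10 arrays from 5 female sheep, numbered 2, 3, 6, 7 and 10, aged 9 months by the sample labels and euthanised at week 4. From each sheep, the caudal lung segment labelled Fibrosis and that labelled Normal were compared, so that every animal supplied its own control. In this model bleomycin, a drug that injures the lung epithelium and is followed by scarring, is infused through a bronchoscope into a caudal segment, and saline is infused into the opposite one. Both segments therefore belonged to a treated animal, and the 5 sheep were those selected by the study for the most severe fibrosis.

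The methods describe infusion of bleomycin into the left segment of all animals. By the labels, however, the right segment is the one with fibrosis in sheep 6, 7 and 10, and only for sheep 2 and 3 do both sources point to the left. The labels were followed, and values by side are given as well. The summed intensity of the 152 miRNAs differed between arrays by a factor of no more than 1.05, whereas that of the 55 control probes differed by a factor of 11.98. A miRNA intensity on these arrays is thus close to a share of the summed miRNA signal. Whole lung tissue was measured, so fewer cells of a type and less RNA per cell cannot be told apart.

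A miRNA pairs with target mRNAs mainly through its seed, a short stretch near its 5′ end, and lowers their translation or stability. The miR-10 genes lie in the HOX clusters, which encode the transcription factors that pattern the body axis, and miR-10a and miR-10b have nearly identical mature sequences with the same seed. MiR-99a is an old relative of the miR-10 family with another seed and is known as a repressor of mTOR, a kinase that controls growth. MiR-125b is the vertebrate counterpart of the worm lin-4 and is known to repress regulators of apoptosis. In many animals, members of the miR-99, let-7 and miR-125 families are transcribed together.

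In the RefSeq annotation of the sheep assembly ARS-UI_Ramb_v3.0, each of the 4 miRNAs matched 1 hairpin gene by name. MIR10A lay within the span of HOXB3, with HOXB5 and HOXB4 as the neighbouring coding genes. MIR10B lay within the span of HOXD4, with HOXD3 and HOXD8 as the neighbouring coding genes. MIR99A lay beside MIRLET7C, within an uncharacterised coding gene, with CXADR and USP25 on either side. MIR125B was annotated on another chromosome, with no other miRNA gene within 100 kb and TVP23B as a neighbouring coding gene. Thus miR-99a and miR-125b were not neighbours in this annotation. A mature miRNA can be cut from several hairpins, and the locus that gave a probe its signal cannot be told apart on an array. The build behind the array design is not given in the sources used here, so no coordinates are stated.

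None of the 4 miRNAs differed between the fibrotic and the normal segments beyond the spread between sheep. Their mean log2 fold changes of Fibrosis over Normal were -0.18 for miR-10a, -0.15 for miR-99a, -0.10 for miR-10b and -0.082 for miR-125b, which correspond to changes between -11.8% and -5.50%. On the deposited values, all 4 were lower in the fibrotic segment of sheep 2 and of sheep 7, and all 4 were higher in that of sheep 6. The direction thus differed between animals for each of them, and no miRNA of the 4 moved the same way in all 5 sheep, where 13.8% of all 152 miRNAs did. With limma and Benjamini-Hochberg adjustment, 0 of the 4 passed an adjusted p under 0.05, as did 0 of all 152 miRNAs (0%). At an unadjusted p under 0.05, 0 of the 4 and 18 of the 152 miRNAs (11.8%) were called. The direction of all 4 depended on the scaling between arrays. Centring on the control probes put each mean above 0, between 0.23 and 0.33, where the median of all miRNAs was also raised, from -0.021 to 0.35.

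For the HOXB-linked miR-10a (oar-miR-10a), the background-corrected intensities in the normal segments of sheep 2, 3, 6, 7 and 10 were 652, 949.7, 364, 805 and 597. The corresponding fibrotic segments had intensities of 381, 1058, 401, 557 and 644. Both groups covered almost the same range, and the fibrotic segment was the lower one only in sheep 2 and 7. The mean intensity of the normal segments was 674 ± 221 (SD, n = 5), and that of the fibrotic ones was 608 ± 274 (SD, n = 5). On the log2 scale, sheep 2 and 7 changed by -0.78 and -0.53, and sheep 10, 6 and 3 by 0.11, 0.14 and 0.16. The limma adjusted p of miR-10a was 0.622, and the 95% interval of its mean change ran from -37.5% to 24.5% (standard error 0.20 on the log2 scale). The median change over sheep, 0.11, was opposite in sign to the mean. The exact two-sided sign-flip permutation test over the 5 sheep gave p = 0.5, where 0.0625 is the smallest p that 5 sheep allow.

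For the HOXD-linked miR-10b (oar-miR-10b), the normal segments of sheep 2, 3, 6, 7 and 10 had intensities of 391, 789.9, 184, 516 and 453. Their fibrotic counterparts had 225, 625, 239, 432 and 648. The fibrotic segment was lower in sheep 2, 3 and 7 and higher in sheep 6 and 10, and the groups overlapped over most of their range. The highest array was 4.28 times the lowest, the widest span of the 4 miRNAs, and both extremes were normal segments. The means were 467 ± 219 (SD, n = 5) for normal segments and 434 ± 203 (SD, n = 5) for fibrotic ones. On the log2 scale, the changes ran from -0.80 in sheep 2 to 0.52 in sheep 10. The limma adjusted p of miR-10b was 0.840, with a standard error of 0.23 and a 95% interval from -37.7% to 39.6% for its mean change (exact sign-flip permutation p = 0.75). Without sheep 2 its mean change was 0.074.

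For miR-99a (oar-miR-99a), the mTOR repressor, the normal segments of sheep 2, 3, 6, 7 and 10 had intensities of 2548, 2935, 1795, 2346 and 1894. In the fibrotic segments these were 1848, 2230.2, 2138, 1931 and 2100.2. The 3 sheep with the higher normal values, sheep 2, 3 and 7, were lower in the fibrotic segment, and the 2 sheep with the lower normal values, 6 and 10, were higher. Each change is taken from the normal value itself, so this order cannot show a dependence on the normal level. The fibrotic segments lay close together, at 2050 ± 156 (SD, n = 5), against 2304 ± 471 (SD, n = 5) for the normal ones. The difference between these standard deviations was not tested. Taking the sheep in the same order, the log2 changes of miR-99a were -0.46, -0.40, 0.25, -0.28 and 0.15. Its limma adjusted p was 0.622, with a standard error of 0.16 and a 95% interval from -31.9% to 19.7% for the mean change (exact sign-flip permutation p = 0.375).

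For miR-125b (oar-miR-125b), the lin-4 counterpart, intensities of 4171, 4714, 1793, 3509.8 and 2026 were measured in the normal segments of sheep 2, 3, 6, 7 and 10. The fibrotic segments had 3088, 3879, 2289, 3471 and 1984. On the log2 scale its changes were -0.43 and -0.28 for the first pair of animals, 0.35 for sheep 6, and -0.016 and -0.030 for the last pair, whose segments hardly differed. Normal segments averaged 3243 ± 1292 (SD, n = 5) and fibrotic segments 2943 ± 794 (SD, n = 5). The limma adjusted p of miR-125b was 0.835, with a standard error of 0.15 and a 95% interval from -27.8% to 23.6% for its mean change (exact sign-flip permutation p = 0.563). It was lower in 4 of 5 sheep, but without sheep 2 its mean change was 0.0064.

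**Figure D1:**
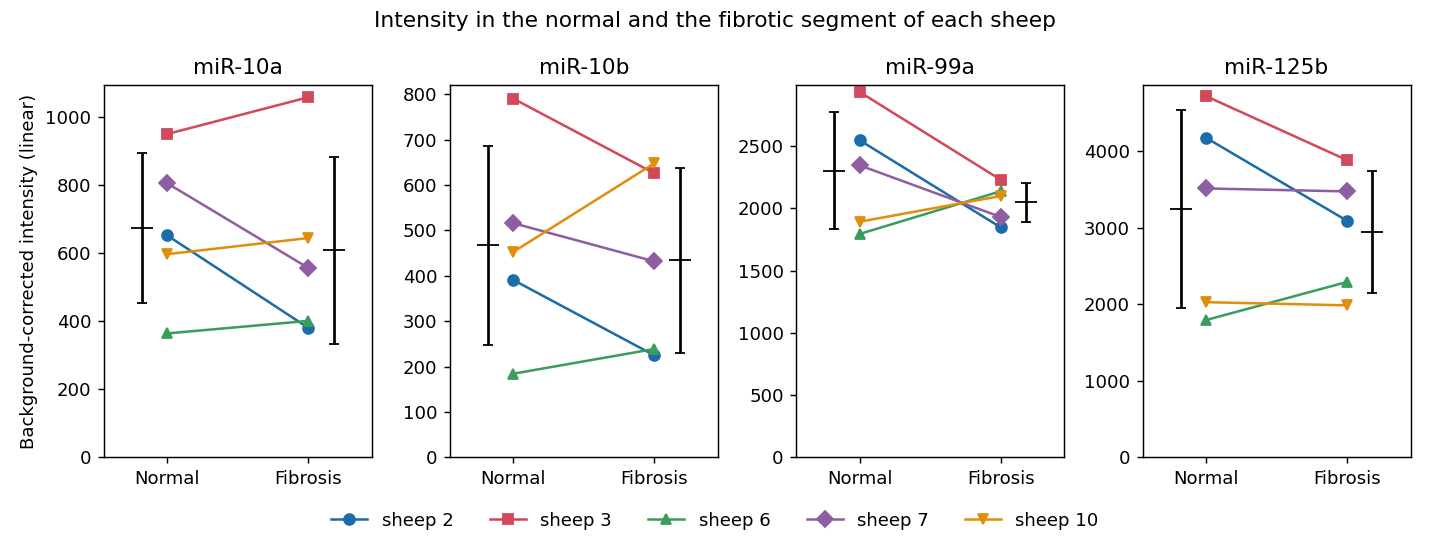
Background-corrected intensity (linear axis from 0) of the 4 miRNAs in the normal and fibrotic caudal segment. Each coloured line joins both segments of a sheep, and black bars give the mean ± SD over 5 sheep. Lines slope in both directions in every panel, and the fibrotic segments of miR-99a lie closest together, between 1848 and 2230.2.

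All 4 miRNAs gave a clear signal. Their mean log2 signals over the 10 arrays were 8.67 for miR-10b, 9.23 for miR-10a, 11.07 for miR-99a and 11.52 for miR-125b, above the limit of 5 that 59 of the 152 miRNAs reached. The standard deviation of the change over sheep had a median of 0.38 for the 4 miRNAs, against 0.34 for these 59 brighter miRNAs and 0.65 for all 152. The median log2 fold change of the 4 was -0.12, with 4 of 4 means below 0, beside -0.021 over all 152 miRNAs, of which 81 (53.3%) had a mean below 0.

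**Figure D2:**
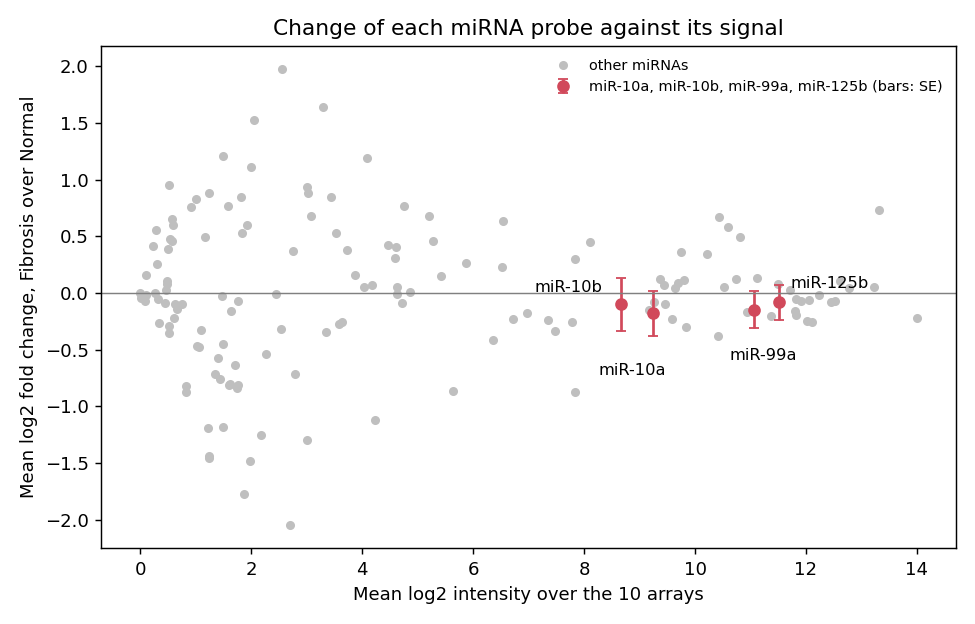
Mean log2 fold change of Fibrosis over Normal (vertical axis) against the mean log2 intensity over the 10 arrays (horizontal axis) for each of the 152 miRNA probes. Red points with standard error bars are the 4 named miRNAs, which lie between -0.18 and -0.082 among probes of similar signal, while the dim probes on the left spread more widely.

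By side of the lung, miR-10b was lower in the left segment in 4 of 5 sheep, with a mean left minus right difference of -0.35 on the log2 scale. The limma adjusted p of this difference was 0.908 (unadjusted p = 0.110, standard error 0.19). MiR-99a was also lower on the left in 4 of 5 sheep, with a mean of -0.20, and sheep 7 was the exception for both. The means were -0.20 for miR-125b and -0.068 for miR-10a, each lower on the left in 3 of 5 sheep. In this comparison 0 of the 4 miRNAs and 3 of the 152 (1.97%) had an unadjusted p under 0.05 in limma, and 0 of 152 passed after adjustment. If the left segment was the infused one in every sheep, as the methods describe, these are the differences between infused and control segments.

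The labelled change was also taken apart by the side of the fibrotic segment, which is left in the first pair of sheep and right in sheep 6, 7 and 10. The mean log2 fold changes with the fibrotic segment on the left and on the right were -0.57 and 0.21 for miR-10b, -0.43 and 0.040 for miR-99a, -0.36 and 0.10 for miR-125b, and -0.31 and -0.094 for miR-10a. The test of this difference is the side term of the fit with condition and sheep, which gave limma adjusted p values of 0.899 for miR-10b, miR-99a and miR-125b and 0.944 for miR-10a. The smallest unadjusted p of the 4 was 0.0999, for miR-10b. At an unadjusted p under 0.05, 0 of the 4 and 4 of the 152 miRNAs (2.63%) were called, and 0 of 152 after adjustment. Under 10 other scalings or choices of sheep, the smallest unadjusted limma p of this side term was 0.0308, for miR-10b. The limma adjusted p of miR-10b stayed at 0.398 or more in these settings. With side in the model, the labelled changes were -0.20 for miR-10a, -0.18 for miR-10b, -0.19 for miR-99a and -0.13 for miR-125b, each with a limma adjusted p of 0.643. With sheep 2 and 3 alone, where labels and methods name the same segment, the limma adjusted p lay between 0.308 and 0.647 for the 4 miRNAs. So few animals give little measure of the spread, so these values cannot show an absence of change.

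**Figure D3:**
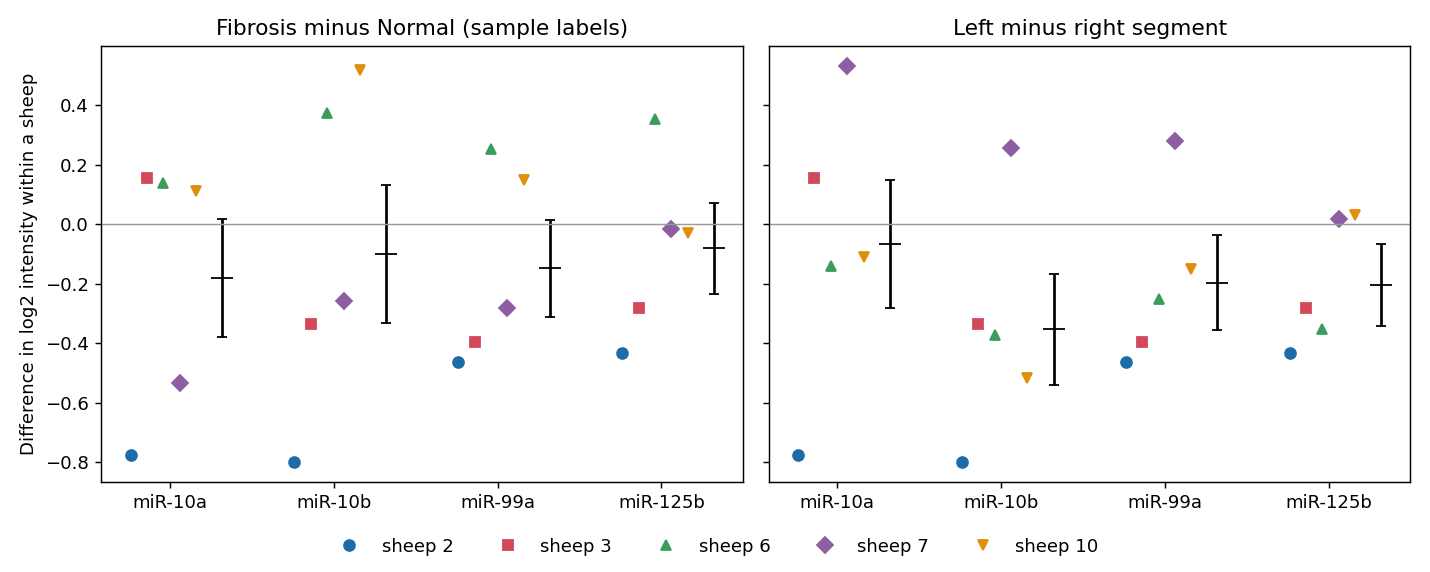
Difference in log2 intensity within each sheep for the 4 miRNAs, as Fibrosis minus Normal by the sample labels (left panel) and as left minus right segment (right panel). Symbols are sheep, and black bars give the mean and its limma standard error. On the left, the means lie between -0.18 and -0.082, and on the right miR-10b lies lowest, at -0.35.

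Averaged over both segments, the levels of miR-10a, miR-10b and miR-125b also varied between the sheep measured. None of them passed adjustment in the limma F test given below. The standard deviation of the sheep means on the log2 scale was 0.70 for miR-10b, 0.52 for miR-10a and 0.51 for miR-125b, but 0.15 for miR-99a. The median of this value was 0.37 for the 59 brighter miRNAs and 0.51 for all 152. For all 4, sheep 3 had the highest mean, and the lowest single array was the normal segment of sheep 6. The highest and lowest sheep differed by 1.74 in log2 terms for miR-10b, 1.39 for miR-10a, 1.09 for miR-125b and 0.38 for miR-99a. For miR-10b the sheep means ran in the order 3, 10, 7, 2 and 6, at 9.46, 9.08, 8.88, 8.21 and 7.71, and neighbouring steps were smaller than the 0.80 by which both segments of sheep 2 differed. For miR-125b, sheep 3, 2 and 7 lay between 12.06 and 11.77, and sheep 6 and 10 were lower, at 10.98 and 10.97.

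In the limma F test across sheep, the unadjusted p was 0.0148 for miR-125b, 0.0215 for miR-10b, 0.0397 for miR-10a and 0.619 for miR-99a. At an unadjusted p under 0.05, 3 of the 4 were called, beside 40 of all 152 miRNAs (26.3%). After Benjamini-Hochberg adjustment by limma, the values were 0.155, 0.155, 0.178 and 0.718, and 0 of 152 miRNAs passed (0%). When the control probes were used to centre the arrays, 11 of the 152 passed, and the 4 had adjusted p values between 0.553 and 0.975, with unadjusted p values of 0.116 or more. The arrays of sheep 6 and 10 had the highest summed control probe intensities, from 275300 to 936426, against 78151 to 205564 on the other 6 arrays. The part of this in the differences between sheep was not tested.

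**Figure D4:**
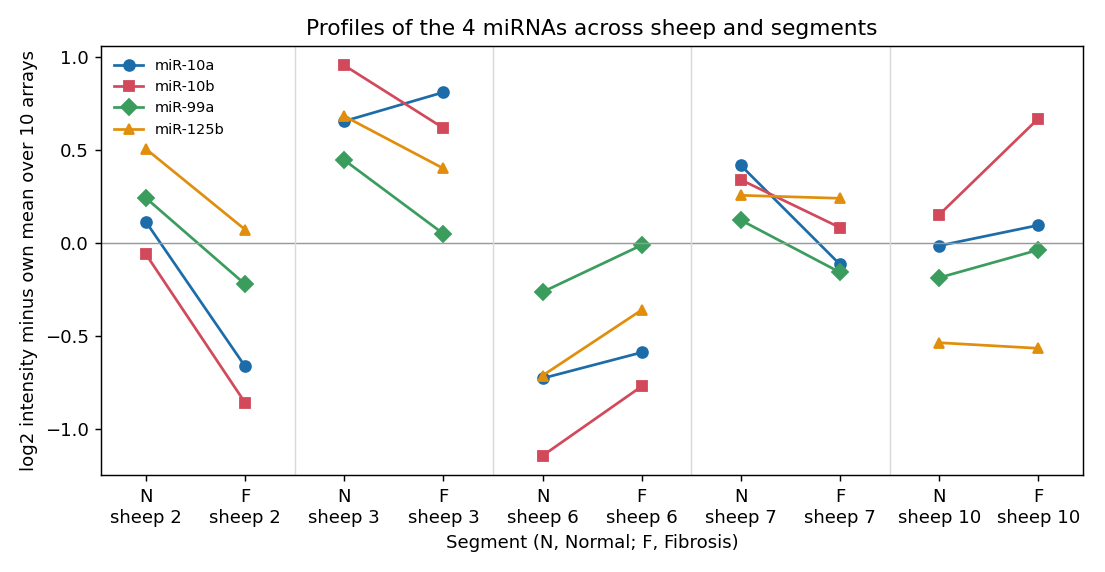
Profiles of the 4 miRNAs over the 10 arrays, as log2 intensity minus the own mean of each miRNA, with the normal (N) and fibrotic (F) segment of a sheep joined by a line. Sheep 3 lies above the mean for all 4 miRNAs and sheep 6 below it, and miR-99a varies least.

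MiR-10a and miR-10b did not follow each other in every animal. Within an array, the change of miR-10a minus that of miR-10b was 0.022, 0.49, -0.23, -0.28 and -0.41 for sheep 2, 3, 6, 7 and 10, and averaged -0.080 ± 0.36 (SD, n = 5). A scaling that shifts a whole array does not alter these differences. In sheep 3 miR-10a was higher and miR-10b lower in the fibrotic segment, which was the only sheep with opposite signs for this pair. The exact sign-flip permutation test gave p = 0.688, or 0.875 after adjustment over the 6 pairs of the 4 miRNAs. How far the probes tell these near-identical miRNAs apart was not tested.

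The change of miR-99a minus that of miR-125b had the smallest spread of the 6 pairs, with a mean of -0.066 ± 0.16 (SD, n = 5) and values from -0.26 in sheep 7 to 0.18 in sheep 10. The exact sign-flip permutation test gave p = 0.438 for it, and the adjusted p was 0.875 for all 6 pairs. The other 4 pairs had mean differences between -0.099 and 0.047. No pair differed in change beyond the spread between sheep, and with 5 sheep no pair could have reached p under 0.05.

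Likeness to other miRNAs was measured as the root mean square difference, over the 10 arrays, of log2 values centred on the mean of each miRNA, among the 59 miRNAs that reached the signal limit of 5. The arrays share animals, so this is a description. The profile of miR-10a was closest to those of let-7b, let-7a and let-7d, at 0.15, 0.17 and 0.18, beside its own standard deviation of 0.51. MiR-10b was closest to let-7b, let-7c and miR-10a, at 0.24, 0.27 and 0.28, beside 0.67. For miR-125b the nearest were miR-30b, miR-30c and miR-23a, at 0.26, 0.27 and 0.30, beside 0.47. MiR-99a was closest to miR-25, at 0.13, whereas miR-191 and miR-23a, at 0.23 and 0.24, differed from it by more than its own standard deviation of 0.21. Among the 4 miRNAs themselves the closest pair was miR-10a and miR-10b, at 0.28, and the most distant was miR-10b and miR-125b, at 0.61.

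Of the relatives and cluster partners on the list used here, let-7a and let-7c were measured. MiR-100, miR-99b, miR-125a and miR-196 had no probe of that name among the 152. Let-7c, whose hairpin neighbours that of miR-99a, had a mean log2 fold change of 0.024 (standard error 0.17, limma adjusted p 0.939). It was higher in the fibrotic segment in 4 of 5 sheep, and its mean was -0.13 when the miRNA median was used to centre the arrays. Let-7a had a mean log2 fold change of -0.068 and a limma adjusted p of 0.840. In the annotation used here, its hairpin had only MIRLET7D within 100 kb, so it was a neighbour of none of the 4.

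Markers of other cell types are given because whole tissue was profiled. The 3 epithelial miRNAs measured, miR-200a, miR-200b and miR-200c, had a summed intensity of 2400.3 to 4319 in normal and 3496 to 6712 in fibrotic segments. The smooth muscle and fibroblast miRNAs miR-143 and miR-199a-3p summed to between 5564 and 20054 in normal and between 8483 and 16264 in fibrotic segments. The lymphocyte miRNA miR-150 ranged from 445 to 2107 in normal and from 309 to 1985 in fibrotic segments, and the muscle miRNA miR-133 from 35.2 to 162 and from 23.5 to 49.3. These ranges overlapped between groups for every list. Within sheep, the fibrotic segment of all 5 animals was the higher one for miR-200b and miR-199a-3p, with log2 fold changes of 0.58 and 0.49 and unadjusted limma p values of 0.0152 and 0.0324. MiR-200a and miR-200c were each higher in 4 of 5 sheep, with log2 fold changes of 0.67 and 0.36 and unadjusted limma p values of 0.0591 and 0.177. MiR-150 was at -0.30 and lower in 4 of 5 sheep, miR-133 at -0.86 and lower in 3, and miR-143 at 0.056 and higher in 3. Of these signs, that of miR-150 turned when the control probes set the scale, and that of miR-143 with the miRNA median, quantile normalization or miR-103 as the scale. By side, left over right, miR-199a-3p was at -0.10, miR-150 at 0.24 and miR-133 at 0.54, each opposite in sign to its labelled change. MiR-200a, miR-200b, miR-200c and miR-143 were at 0.21, 0.045, 0.10 and 0.22 by side. The unadjusted limma p values of miR-200a, miR-200b and miR-200c were then 0.625, 0.886 and 0.725. After limma adjustment, 0 of these 7 miRNAs had a p under 0.05. Their part in the values of the 4 miRNAs was not tested, and the listed endothelial, erythroid and myeloid markers had no probe among the 152.

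**Figure D5:**
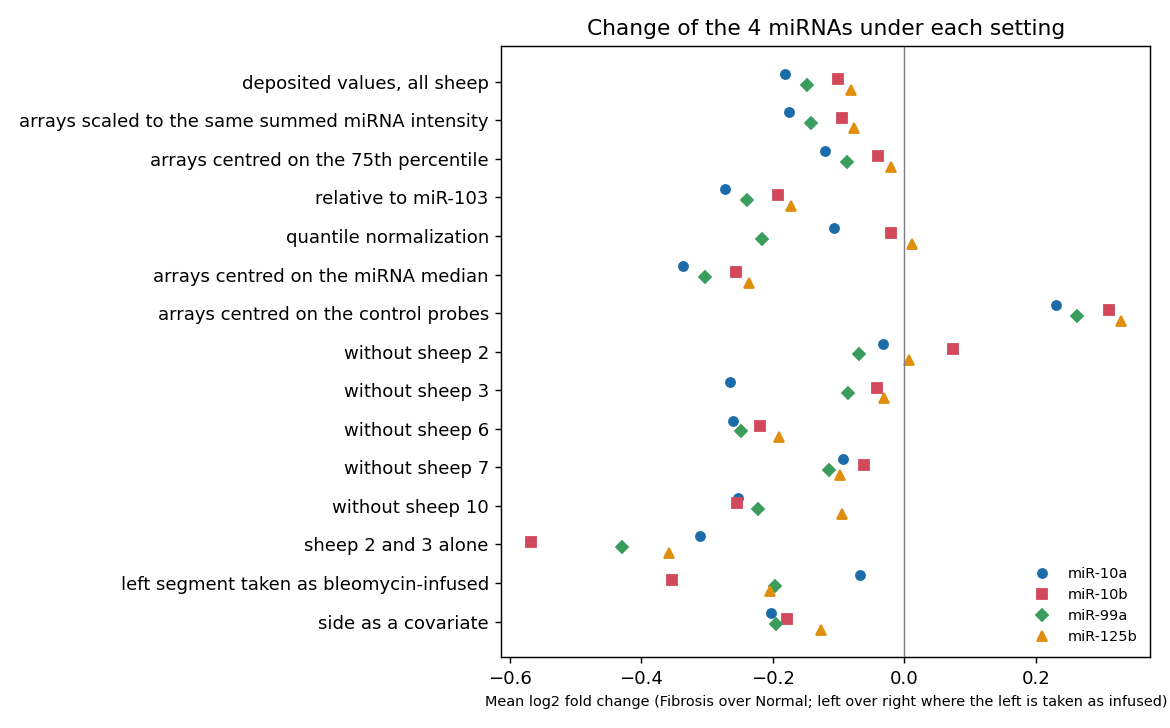
Mean log2 fold change (horizontal axis) of the 4 miRNAs under each scaling, choice of sheep and coding of the segments (rows). All 4 lie above 0 when the control probes set the scale, at 0.23 to 0.33, miR-10b and miR-125b lie above 0 without sheep 2, and miR-125b lies at 0.011 after quantile normalization.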

How the data were processed

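Total RNA of 10 caudal lung segments was labelled with Cy3 and hybridised to a custom ovine array of 152 miRNA and 55 control probes. The authors deposited background-corrected intensity values, averaged over 21 spots per probe. The methods name a log2 transformation, but the deposited intensity values, from 0.000974 to 200194, were linear, and no scaling between arrays is described. Single spots were not analysed here, so the sheep are the replicates.

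Values under a floor of 1 were raised to it before taking log2. The floor touched 14.8% of miRNA values and none of the 4 miRNAs described. The model, condition plus a block for each sheep, was fitted across the 152 miRNAs in limma 3.58.1 (R 4.3.3), with Benjamini-Hochberg adjustment over all of them. Side was tested as an added term and sheep by an F test. Single values and pairs of miRNAs were tested by exact two-sided sign-flip permutation over the 5 sheep. The fit was tested on simulated data.

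The segments of an animal were treated as a pair. Checked across miRNAs, the deviations of both segments from their condition means had correlations of 0.34, 0.90, 0.40, -0.67 and 0.56 in sheep 2, 3, 6, 7 and 10, against a median of -0.090 between different sheep.

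The 4 miRNAs, the relatives, the cell type lists and the tests were chosen with earlier results of these data known. Named miRNAs were the 4, their listed relatives, the listed cell type markers, the 3 miRNAs nearest in profile to each, and the PCR reference miR-103. A part of the rule on shared seeds was not used here. Alternatives were other scalings, reference to miR-103, a floor of 32, a filter on dim miRNAs, no block, leaving out sheep, taking the left segment as infused, adding side, a trend of variance with intensity and Student's test. The methods apply Student's test to the spots of each sheep separately. By that test, the study lists all 4 miRNAs as significantly downregulated in the infused segments. Student's test was run here over sheep, paired and unpaired, which is another test on other values. The number of arrays limits the precision.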

Additional observations from a re-analysis of the deposited data

How the results depend on the processing

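The 4 miRNAs stayed above an adjusted p of 0.05 under all 20 alternatives for the labelled change, including Student's test over sheep, paired and unpaired, and 0 of them had an unadjusted p under 0.05 in any. With arrays centred on their control probes the log2 fold changes were 0.23 for miR-10a, 0.31 for miR-10b, 0.26 for miR-99a, 0.33 for miR-125b and 0.34 for let-7a, so that 0 of the 4 had a mean below 0. In that setting 1 miRNA of the array had an adjusted p under 0.05, and 11 did between sheep. Quantile normalization gave 0.011 for miR-125b and 0.11 for miR-10a minus miR-99a. With miR-103 as reference, the changes were -0.27 for miR-10a, -0.19 for miR-10b, -0.24 for miR-99a and -0.17 for miR-125b. The cause of these differences was not tested.

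Without the replicate block the log2 fold change of miR-10a remained -0.18, as the paired design is balanced, and the block changed no call of the 4 miRNAs. At an unadjusted p under 0.05, the count over all miRNAs was 18 as reported and 8 without the block, with a range over the alternatives from 3 with the left segment taken as infused to 26 without sheep 6.

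With 1 sheep left out in turn, the changes ran from -0.26 to -0.032 for miR-10a, from -0.25 to 0.074 for miR-10b, from -0.25 to -0.069 for miR-99a and from -0.19 to 0.0064 for miR-125b. Sheep 2 decided the upper ends, and without it 2 of the 4 miRNAs had a mean below 0, against 4 in every other such setting. Let-7a ran from -0.16 to 0.029. The side term of the fit with condition and sheep was -0.11 for miR-10a on all sheep, and is not the plain left minus right mean of -0.068. With 1 sheep left out, this term ran from -0.34 to 0.12 for miR-10a, the latter without sheep 2. The side terms of miR-10b, miR-99a and miR-125b kept their sign. Among pairs, the difference in change ran from -0.22 to 0.0011 for miR-10a minus miR-10b, from -0.18 to 0.037 for miR-10a minus miR-99a, and from -0.23 to 0.0050 for miR-10a minus miR-125b. It ran from -0.033 to 0.14 for miR-10b minus miR-99a and from -0.16 to 0.068 for miR-10b minus miR-125b. Let-7c was below 0 under several settings, with -0.13 for the miRNA median, -0.067 relative to miR-103, -0.26 with sheep 2 and 3 alone, -0.23 with the left segment taken as infused and -0.023 with side as a covariate. With 1 sheep left out it ran from -0.051 to 0.17.

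The same alternatives were run for the cell type markers after seeing the data. MiR-200a, miR-200b and miR-200c kept their sign under all 20. Their lowest values, 0.21, 0.045 and 0.10, came with the left segment taken as infused. With the left segment taken as infused, miR-199a-3p was at -0.10, miR-150 at 0.24 and miR-133 at 0.54. With control probes as the scale, miR-150 was at 0.11. MiR-143 was at -0.099 for the miRNA median, -0.029 after quantile normalization and -0.035 with miR-103 as reference, and ran from -0.071 to 0.19 with 1 sheep left out.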
